A study of Mus musculus with 12 samples.

Results

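Actin genes were examined in mouse acute myeloid leukaemia cells after a treatment to delete Riok2. They comprise the cytoplasmic actins, the subunits of the ARP2/3 complex and the proteins that promote, cap, sever, bundle or anchor actin filaments. The 44 genes were chosen by symbol, with earlier results of these data known. Each symbol matched 1 of the 24221 rows of the authors' deposited table. All 44 had an adjusted p-value there. The cells carry the MLL-AF9 fusion on the C57BL/6 strain, with Riok2 alleles labelled Riok2fl/fl, that is, flanked by loxP sites. There were 3 samples with hydroxytamoxifen (OHT) and 3 with its solvent ethanol (EtOH), both collected 72 h after addition. The labels name neither the Cre that OHT is to switch on nor the exons removed, and they do not say that replicates were separate cultures, so p-values measure only the spread between these samples. Further MLL-AF9 samples with a RIOK2 inhibitor at 1 µM or with DMSO are not analysed here. No sample had OHT without loxP-flanked Riok2, so effects of OHT or Cre and of Riok2 loss cannot be told apart.

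Actin monomers polymerise into filaments that a cell builds and takes apart continuously. The ARP2/3 complex starts new branches on existing filaments when WASP or WAVE proteins activate it, ENA/VASP proteins and profilin feed filament growth, capping proteins stop it, and cofilin and gelsolin cut filaments. Crosslinkers, myosin II and membrane linkers turn the filaments into a contractile cortex, which granulocytes and macrophages use to crawl, adhere and engulf particles.

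Most of these genes were higher in OHT. Of the 44, 33 rose and 1 fell at an adjusted p under 0.05, and 10 did not pass this threshold. Of all tested genes in the authors' deposited table, 25.5% were higher, 23.4% lower and 48.9% either, and among those with a base mean of 1000 normalised reads or more, a level that 40 of the 44 reached, 31.6% were higher, 31.7% lower and 63.3% either. The median log2 fold change of the 44 genes, OHT over EtOH, was 0.53, beside 0.05 over all tested genes and -0.0059 over those that reach a base mean of 1000. The steepest rises in the authors' deposited table were those of the filament end capper Capg (2.17 ± 0.17, authors' SE), the severing protein Gsn (1.70 ± 0.15) and the filament elongation factor Evl (1.63 ± 0.19). The single fall was that of the ARP2/3 subunit Arpc5l (-0.76 ± 0.24) in the same authors' deposited table.

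**Figure D1:**
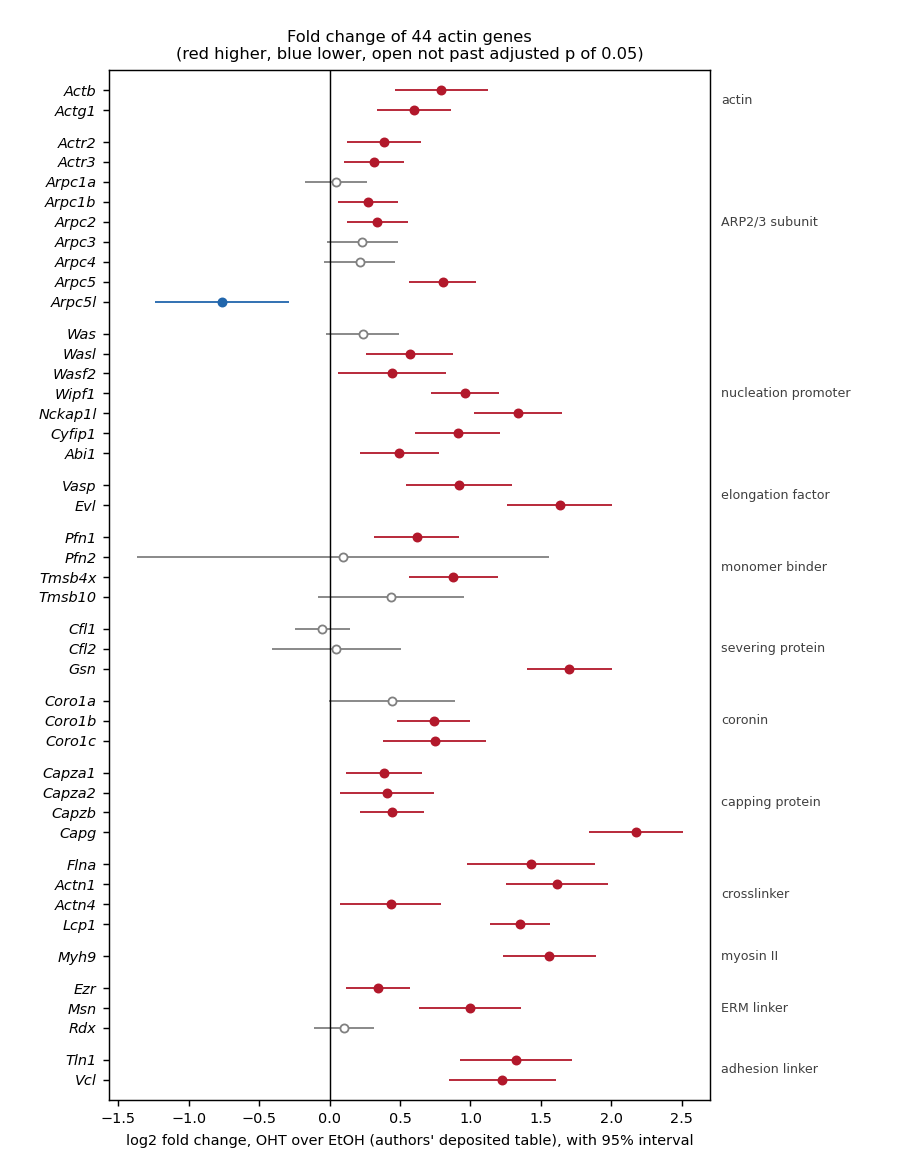
Each point is the log2 fold change of a gene, OHT over EtOH, from the authors' deposited table, with a 95% interval from its standard error, and genes are grouped by role down the page. Of the 44 genes, 33 lie above 0 in red, Arpc5l lies below 0 in blue, and 10 open symbols did not pass the threshold.

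The table gives a base mean and no column of values per sample. The base mean is taken as the average of normalised reads over the OHT and EtOH libraries. Its column does not say whether the samples of the other groups entered it. A level in each group was therefore implied from the base mean and the fold, with 3 samples a group. The only error at hand is that of the fold, and the base mean has an error that is not given. The deposited folds are read as shrunk, so the implied levels of the groups lie closer together than unshrunk folds would put them. Direction rests on the targeted gene: Riok2 had a log2 fold of -3.60 ± 0.20 (SE, adjusted p = 7.8e-69) by the authors' deposited table, and folds are read as OHT over EtOH. The 44 genes held 2.97% of all normalised reads although they are 0.319% of the tested genes. Their implied levels summed to 761680 normalised reads in OHT and 444317 in EtOH, a ratio of 1.71.

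Actb, which encodes beta-actin, had an implied level of 95993 normalised reads in OHT and 55391 in EtOH. Its log2 fold change in the authors' deposited table was 0.79 ± 0.17 (SE, adjusted p = 1.3e-05), a fold of 1.73 with a 95% interval of 1.38 to 2.18. Actg1, the gamma-actin gene, had 10035 in OHT and 6628 in EtOH by the same calculation, and its log2 fold change was 0.60 ± 0.13 (adjusted p = 2.9e-05) by the authors' deposited table. Both cytoplasmic actins thus rose. Their log2 folds differed by -0.19 (Actg1 minus Actb, 95% interval -0.62 to 0.23, errors treated as independent). Per kb of exon, the Actg1 level was 0.105 of the Actb level in OHT and 0.121 in EtOH. Pseudogene copies of both exist, and the treatment of reads that match several places was not given in the sources used here. Actb lies on GRCm38 chromosome 5 (142903115 to 142906754, minus strand) and Actg1 on chromosome 11 (120345690 to 120348542, minus strand).

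Serum response factor (SRF), with its actin-sensing partners of the MRTF family, binds CArG boxes in the promoters of many actin genes. The 250 bases before the RefSeq start site were available for 39 of the 44 genes (GRCm38.p6), and not for Actb, Arpc5l, Coro1b, Cyfip1 and Nckap1l. A CArG box was found in 3 of the 39 (7.69%), beside 1.62% of 27025 genes with a promoter in the table and 1.29% of the 3800 of these with a base mean of 1000 or more. The 3 promoters are shown because they carry the box, which is in capitals. They are read 5′ to 3′ on the strand of the gene and end at the base before the start site: Actg1 at chr11:120348496-120348745 (minus strand), Vcl at chr14:20929148-20929397 (plus strand) and Arpc4 at chr6:113377863-113378112 (plus strand).
Actg1: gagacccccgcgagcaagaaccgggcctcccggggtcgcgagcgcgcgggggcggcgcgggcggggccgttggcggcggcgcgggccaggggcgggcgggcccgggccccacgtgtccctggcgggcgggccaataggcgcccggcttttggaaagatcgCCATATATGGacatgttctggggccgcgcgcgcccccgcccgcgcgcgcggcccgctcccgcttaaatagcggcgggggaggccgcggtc
Vcl: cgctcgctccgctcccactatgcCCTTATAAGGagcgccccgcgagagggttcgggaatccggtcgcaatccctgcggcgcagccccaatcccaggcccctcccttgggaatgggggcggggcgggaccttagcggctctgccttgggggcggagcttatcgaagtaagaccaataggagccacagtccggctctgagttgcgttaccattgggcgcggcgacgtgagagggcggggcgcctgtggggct
Arpc4: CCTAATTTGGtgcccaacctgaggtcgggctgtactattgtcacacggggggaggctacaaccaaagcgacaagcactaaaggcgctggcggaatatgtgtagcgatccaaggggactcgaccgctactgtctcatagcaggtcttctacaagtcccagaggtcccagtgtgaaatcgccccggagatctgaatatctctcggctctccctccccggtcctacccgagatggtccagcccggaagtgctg
The box lay at positions -90 to -81 in Actg1, -227 to -218 in Vcl and -250 to -241 in Arpc4, counted from the start site. Log2 folds of these genes in the authors' deposited table were 0.60 ± 0.13 for Actg1, 1.23 ± 0.19 for Vcl and 0.21 ± 0.13 for Arpc4 (SE). Thus 2 of the 3 rose, beside 33 of all 44 genes (75.0%). Arpc4 did not pass the threshold (adjusted p = 0.162 by the authors' deposited table). The sequence GGGCGG, a GC box, was in 27 of the 39 promoters (69.2%) and in 67.7% of those of abundant genes, on either strand. TATAAA was in 1 of the 39, that of Myh9 (2.56%, beside 7.05% of abundant genes), and GAGGAAGT, a site form of the myeloid factor PU.1, in 0 (beside 3.18%).

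The 9 ARP2/3 genes had mostly small folds, apart from the ARPC5 forms. By the authors' deposited table, 5 rose, 1 fell and 3 did not pass, with a median log2 fold of 0.27. Among all tested genes with a base mean of 1000 or more, 31.6% were higher and 31.7% lower. These shares also stand beside the counts of the roles below, each of which rests on few genes. Implied levels of the 9 summed to 123008 normalised reads in OHT and 97433 in EtOH. The actin-related proteins Actr2 and Actr3, which form the first pair of units of a new branch, had log2 folds of 0.39 ± 0.13 (SE, adjusted p = 0.00994) and 0.31 ± 0.11 (adjusted p = 0.01005) by the authors' deposited table. The scaffold subunit Arpc2 had 0.34 ± 0.11 and Arpc1b, the haematopoietic form of the ARPC1 subunit, 0.27 ± 0.11 (adjusted p = 0.0274) by the authors' deposited table. Its ubiquitous counterpart Arpc1a had 0.05 ± 0.11 (adjusted p = 0.751), and Arpc3 and Arpc4 had 0.23 ± 0.13 and 0.21 ± 0.13 (adjusted p = 0.123 and 0.162), again in the authors' deposited table.

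The alternative forms of the ARPC5 subunit moved in opposite directions. Arpc5 had an implied level of 15524 normalised reads in OHT and 8906 in EtOH, and Arpc5l had 1150 in OHT and 1951 in EtOH. In log2 terms Arpc5 rose by 0.80 ± 0.12 (SE, adjusted p = 4.4e-10) and Arpc5l fell by 0.76 ± 0.24 (adjusted p = 0.00446) by the authors' deposited table. Arpc5 exceeded Arpc5l 26.7-fold per kb of exon in OHT and 9.02-fold in EtOH. The difference of their log2 folds was 1.56 (95% interval 1.03 to 2.09). Complexes built with either form are known to differ in branching activity, Arpc5l giving the more active complex in work with purified human proteins. Arpc5 lies on GRCm38 chromosome 1 (152766542 to 152775597, plus strand) and Arpc5l on chromosome 2 (39005348 to 39015877, plus strand).

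Among the 7 activators of ARP2/3, 6 rose and 0 fell, and Was did not pass. The largest rise among these 7 was in Nckap1l (HEM1), the blood cell subunit of the WAVE complex, with an implied level of 7355 normalised reads in OHT and 2908 in EtOH. Its log2 fold change in the authors' deposited table was 1.34 ± 0.16 (SE, adjusted p = 1.1e-15). The other WAVE complex genes among the 7 also rose in the authors' deposited table: the Rac-binding subunit Cyfip1 by 0.91 ± 0.15, Abi1 by 0.49 ± 0.14 and the ARP2/3-binding subunit Wasf2 by 0.44 ± 0.20. Wasf2 stood at the threshold (adjusted p = 0.04999) by the authors' deposited table, and its call was lost when all genes with a p-value were adjusted together. Wipf1, whose product WIP binds WASP and protects it from degradation, had an implied 4186 normalised reads in OHT and 2153 in EtOH, a log2 fold of 0.96 ± 0.12 by the authors' deposited table. Was itself, the WASP gene of blood cells, had 0.24 ± 0.13 (adjusted p = 0.130), and its widely expressed relative Wasl had 0.57 ± 0.16 (adjusted p = 9.8e-04) by the authors' deposited table. Per kb of exon, Was exceeded Wasl 24.2-fold in OHT and 30.4-fold in EtOH.

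Both elongation factors of the ENA/VASP family rose. Vasp had an implied 17367 normalised reads in OHT and 9191 in EtOH, with a log2 fold of 0.92 ± 0.19 (SE, adjusted p = 7.7e-06) by the authors' deposited table. Evl had 1076 in OHT and 347 in EtOH, and 1.63 ± 0.19 (adjusted p = 2.1e-16) by that authors' deposited table. Evl rose more than Vasp by 0.71 (95% interval 0.19 to 1.24), yet per kb it reached only 0.0552 of the Vasp level in OHT and 0.0336 in EtOH.

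Of the proteins that hold actin monomers, the main form of each pair rose. Tmsb4x (thymosin beta 4, which sequesters monomers) had the highest level per kb of the 44 genes, with an implied 121425 normalised reads in OHT and 66070 in EtOH. Its log2 fold change was 0.88 ± 0.16 (SE, adjusted p = 3.1e-07) by the authors' deposited table. The related Tmsb10 had 1978 in OHT and 1461 in EtOH, and 0.44 ± 0.26 (adjusted p = 0.166) by the authors' deposited table. Profilin 1, Pfn1, which loads monomers onto growing ends, had an implied 22618 in OHT and 14731 in EtOH and rose by 0.62 ± 0.15 (adjusted p = 2.1e-04) by the authors' deposited table. Pfn2 was close to absent, with a base mean of 2.93 normalised reads and a log2 fold of 0.09 ± 0.75 (adjusted p = 0.932) by the authors' deposited table, so that a difference was not detectable at this depth. The interval of the difference in log2 fold included 0 in both pairs (Tmsb4x minus Tmsb10, 0.44, 95% interval -0.17 to 1.05).

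Neither cofilin gene passed the threshold. Cfl1, the main cofilin of non-muscle cells, which disassembles old filaments, came after Tmsb4x and Actb among the 44 genes in base mean per kb of exon, with an implied 28622 normalised reads in OHT and 29694 in EtOH. The log2 fold change was -0.05 ± 0.10 (SE, adjusted p = 0.686) by the authors' deposited table, and the 95% interval of the fold ran from 0.842 to 1.10. The muscle form Cfl2 was at 0.05 ± 0.23 (adjusted p = 0.884) by the authors' deposited table. In contrast, gelsolin (Gsn), a calcium-activated severing and capping protein, had an implied 15828 normalised reads in OHT and 4866 in EtOH, a fold of 3.25 (95% interval 2.64 to 4.01, adjusted p = 8.4e-27 by the authors' deposited table). Gsn lies on GRCm38 chromosome 2 (35256380 to 35307892, plus strand).

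All 4 capping genes rose, and Capg stood apart from the heterodimeric capping protein. Capza1, Capza2 and Capzb, which together encode the alpha and beta subunits, had log2 folds of 0.39 ± 0.14, 0.41 ± 0.17 and 0.44 ± 0.12 (SE, adjusted p = 0.0118, 0.0373 and 4.6e-04) by the authors' deposited table. Capg, a gelsolin relative abundant in macrophages that caps without severing, had an implied 7981 normalised reads in OHT and 1769 in EtOH. Its fold of 4.51 (95% interval 3.59 to 5.67, adjusted p = 1.1e-35 by the authors' deposited table) was the largest of the 44. It lies on GRCm38 chromosome 6 (72544391 to 72562983, plus strand).

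Coronins, which bind filaments and counter ARP2/3 branches, were higher for Coro1b (0.74 ± 0.13 SE, adjusted p = 1.7e-07) and Coro1c (0.75 ± 0.19, adjusted p = 2.2e-04) on the log2 scale in the authors' deposited table. Coro1a, the leukocyte coronin and the highest of the 3 per kb, had an implied 27747 normalised reads in OHT and 20384 in EtOH, with 0.44 ± 0.23 (adjusted p = 0.0946) by the authors' deposited table. The intervals of all 3 differences between coronins included 0.

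**Figure D2:**
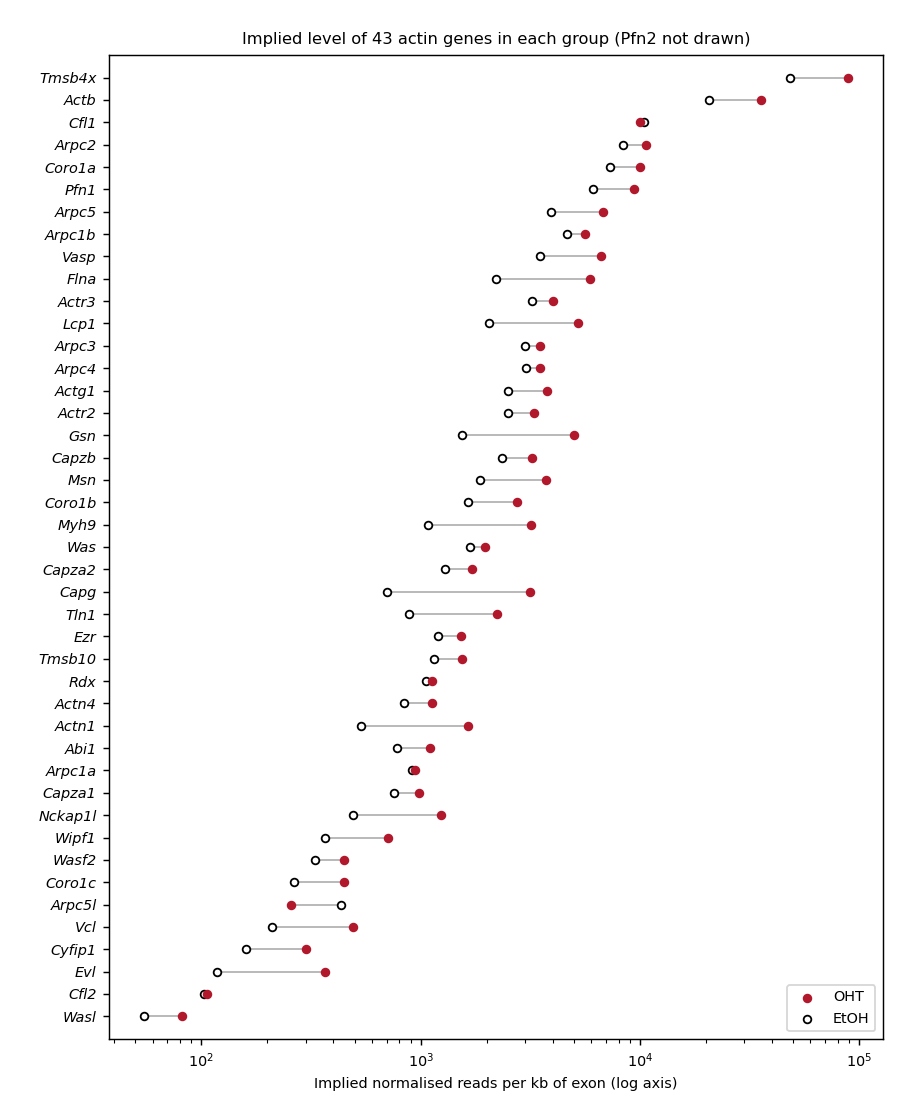
Filled points are implied levels in OHT and open points those in EtOH, in normalised reads per kb of exon on a log axis, for 43 genes ordered by level (Pfn2, at a base mean of 2.93, is not drawn). Tmsb4x and Actb lead in both groups, the points of Cfl1 nearly coincide, and Arpc5l is lower in OHT.

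Crosslinking and contractile genes had the largest median folds by role. The 4 crosslinkers all rose, with a median log2 fold of 1.39 by the authors' deposited table and implied levels that summed to 121565 normalised reads in OHT and 48302 in EtOH. Flna, the filamin that joins filaments into nets and ties them to integrins, had an implied 55877 in OHT and 20731 in EtOH, and 1.43 ± 0.23 (SE, adjusted p = 7.0e-09) by the authors' deposited table. Lcp1, the leukocyte bundling protein L-plastin, had 49685 in OHT and 19482 in EtOH, and rose by 1.35 ± 0.11 (adjusted p = 1.3e-32) by the authors' deposited table. Alpha-actinin genes rose unequally: Actn1 by 1.61 ± 0.18 (adjusted p = 4.5e-17) and Actn4 by 0.43 ± 0.18 (adjusted p = 0.0373) on the log2 scale in the authors' deposited table. Actn1 exceeded Actn4 by 1.18 in log2 fold (95% interval 0.67 to 1.69), and its level per kb was 1.45 times that of Actn4 in OHT and 0.642 times in EtOH. Myh9, the heavy chain of non-muscle myosin IIA, had an implied 41289 normalised reads in OHT and 14008 in EtOH, a fold of 2.95 (95% interval 2.34 to 3.71, adjusted p = 1.0e-18 by the authors' deposited table).

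Genes that tie actin to the membrane also rose, apart from radixin. Moesin, Msn, the main ERM protein of leukocytes, had an implied 23690 normalised reads in OHT and 11863 in EtOH, a log2 fold of 1.00 ± 0.18 (SE, adjusted p = 4.1e-07) by the authors' deposited table. Ezrin, Ezr, had 0.34 ± 0.12 (adjusted p = 0.00884) and radixin, Rdx, 0.10 ± 0.11 (adjusted p = 0.467) by the authors' deposited table. Msn exceeded Ezr by 0.65 (95% interval 0.23 to 1.08) and Rdx by 0.90 (0.48 to 1.32) in log2 fold. The integrin-binding talin, Tln1, had an implied 21818 normalised reads in OHT and 8720 in EtOH, and its partner vinculin, Vcl, had 4019 in OHT and 1717 in EtOH. Their log2 folds were 1.32 ± 0.20 (adjusted p = 6.0e-10) and 1.23 ± 0.19 (adjusted p = 1.7e-09) by the authors' deposited table.

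**Figure D3:**
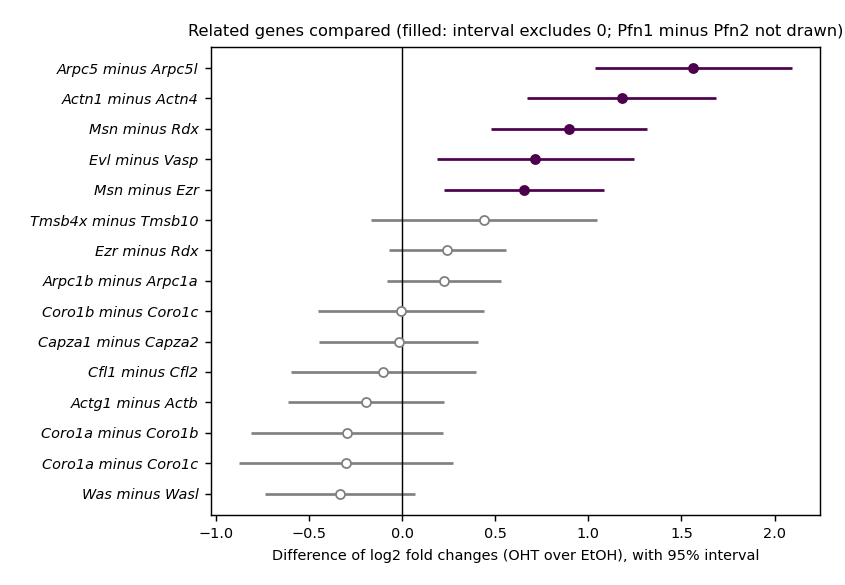
Each point is the difference of the log2 folds of related genes, with a 95% interval that treats their errors as independent (Pfn1 minus Pfn2 is not drawn). Of 16 pairs compared, 5 had an interval that excluded 0, led by Arpc5 minus Arpc5l at 1.56.

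Across the 16 pairs of related genes, 5 intervals excluded 0 and 11 included it. The 5 were Arpc5 over Arpc5l, Actn1 over Actn4, Evl over Vasp, and Msn over both Ezr and Rdx. Errors of genes measured in the same libraries need not be independent, and the intervals are not adjusted for the number of pairs.

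Other genes of the actin pathway were mostly higher too. In 10 lists with 203 genes, none of them among the 44, 186 were tested in the authors' deposited table. Of these 186, 120 rose (64.5%, beside 25.5% of all tested genes) and 9 fell, with a median log2 fold of 0.76. The lists were chosen with earlier results of these data known, so this share is not independent of those results. Of these lists 7 are described. Of 12 formins, which nucleate and extend unbranched filaments, 9 rose and 1 fell, led by Fmnl2 (2.40 ± 0.31 SE) and Fmn1 (2.24 ± 0.35), with the leukocyte formin Fmnl1 at 1.05 ± 0.21 and Diaph3 lower at -0.32 ± 0.12 by the authors' deposited table. Of 17 other WASP, WAVE and ARP2/3 regulators 7 rose (41.2%) and 1 fell, with the cortactin relative Hcls1 at 0.96 ± 0.13, Cyfip2 at 0.98 ± 0.20, the adaptor Nck2 at 1.10 ± 0.36 and Jmy at -0.44 ± 0.17 by the authors' deposited table.

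Of 28 other monomer-binding, severing and capping genes 17 rose and 0 fell, among them the gelsolin relative Svil (1.57 ± 0.22 SE), the capper Eps8 (1.46 ± 0.26) and the cofilin relative Dstn (0.35 ± 0.10), which had the highest base mean, in the authors' deposited table. Of 20 other myosins and tropomyosins 15 rose and 0 fell, with Myo1e at 1.87 ± 0.37, Myo5a at 1.75 ± 0.24 and the tropomyosin Tpm3 at 0.08 ± 0.12 (adjusted p = 0.613) by the authors' deposited table. Of 34 other crosslinkers and adhesion genes 17 rose and 1 fell, with Plec at 1.68 ± 0.20, Iqgap1 at 1.55 ± 0.15, and Swap70 at -0.68 ± 0.13 by the authors' deposited table. Among muscle actins only Acta2 was tested, at a base mean of 132 and 0.69 ± 0.30 (adjusted p = 0.0437) by the authors' deposited table.

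Srf and the MRTF genes moved in opposite directions. Of 7 tested genes in the list of SRF and MRTF factors, which is not limited to coactivators, 6 rose and Srf fell. Srf had an implied 2048 normalised reads in OHT and 2909 in EtOH, a log2 fold of -0.51 ± 0.15 (SE, adjusted p = 0.00206) by the authors' deposited table. The coactivator genes Mrtfa and Mrtfb, listed under their older names Mkl1 and Mkl2, had 1.35 ± 0.22 (adjusted p = 3.5e-09) and 1.27 ± 0.25 (adjusted p = 2.1e-06) by the authors' deposited table.

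Fold change moved with exon length in these libraries. Among tested genes with a base mean of 1000 or more and a length in GENCODE M21 (96.2% of them), the median log2 fold change was -0.39 for exons under 2 kb, -0.17 from 2 to 4 kb, 0.0079 from 4 to 6 kb and 0.17 above. The share called higher in the authors' deposited table ran from 20.5% and 25.3% through 30.7% to 39.6% in these bins. The actin genes called higher were 1 of 2, 13 of 21, 8 of 10 and 11 of 11 in the same bins. These counts take all 44 genes, including the 4 with a base mean under 1000. The longest, with Flna, Myh9, Tln1, Vcl and Lcp1 among them, had a median of 1.00. The part of length in the result was not tested beyond these counts.

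**Figure D4:**
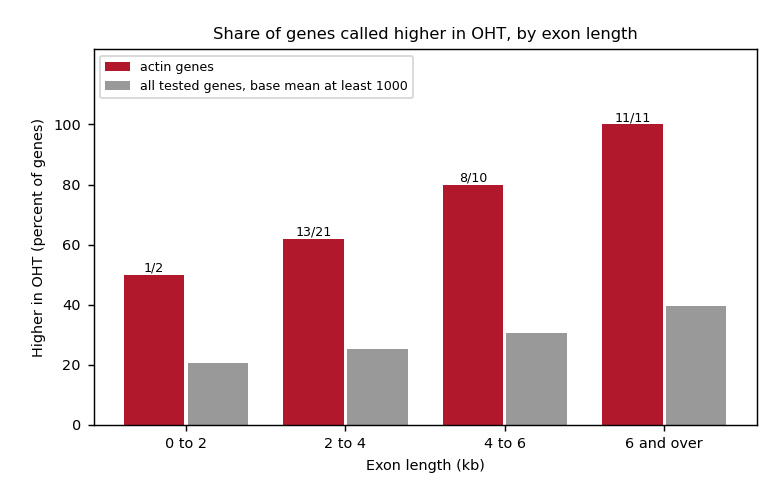
Bars give the percent of genes called higher in OHT by exon length. Red is for all 44 actin genes with their counts, including 4 with a base mean under 1000. Grey is for tested genes with a base mean of 1000 or more. The grey bars go from 20.5% to 39.6%, and the actin genes stand above them in each bin, with 11 of 11 at 6 kb and over.

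Markers of maturation moved with the actin genes. The marker lists too were chosen with earlier results of these data known. All 12 genes of a mature neutrophil and macrophage list, among them Itgam, Csf1r and Mmp9, were higher in the authors' deposited table. Of all tested genes there, 25.5% were higher and 23.4% lower. Implied levels of the 12 summed to 726232 normalised reads in OHT and 149791 in EtOH. Most of the OHT sum came from S100a9 (298871) and Lyz2 (235036), and the log2 fold of Lyz2 had a wide error (3.05 ± 0.55 SE). Of 10 progenitor and leukaemia genes, all expressed at a base mean of 1648 or more, 6 fell and 2 (Ptprc and Spi1) rose. Among all tested genes with a base mean of 1000 or more, 31.6% were higher and 31.7% lower. Kit (log2 fold 0.31 ± 0.26 SE) and Cebpa (-0.22 ± 0.11) did not pass the threshold in the authors' deposited table. The summed level of the 10 was 89008 in OHT and 218004 in EtOH. Most of the EtOH sum came from Mpo (57540), Elane (78678) and Prtn3 (50466). Lymphoid Cd3e and Ms4a1, erythroid Hbb-b1 and Hba-a1 and stromal Dcn were listed at 0. Erythroid and megakaryocyte markers summed to 1861 in OHT and 813 in EtOH (1 of 5 tested rose). Most of this was Itga2b (1465 in OHT and 641 in EtOH), which did not pass the threshold (adjusted p = 0.175 by the authors' deposited table). Stromal and endothelial markers summed to 1963 in OHT and 1615 in EtOH (2 of 4), mostly Pecam1 (1708 in OHT and 1449 in EtOH). Lymphoid ones summed to 308 in OHT and 390 in EtOH (2 of 3). Most of this was Nkg7 (269 in OHT and 378 in EtOH), which did not pass the threshold (adjusted p = 0.229 by the authors' deposited table). Cd3d and Cd79a rose, at base means of 16.0 and 9.49. The part of these markers in the actin result was not tested, and in bulk RNA a larger share of mature cells and more RNA per cell cannot be told apart.

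Some exons overlap those of a neighbour, and whether counting used the strand was not given in the sources used here. More than 10% of exon bases were shared for 6 of the 44 genes: Vcl with Ap3m1 (25.5%), Arpc1b with Pdap1 (18.2%), Cfl1 with Snx32 (16.5%), Coro1b with Ptprcap and Rps6kb2 (13.5%), Arpc4 with Ttll3 (12.2%) and Cyfip1 with Nipa2 (11.0%). Values of these 6 genes are uncertain for this reason. Only overlap with protein-coding genes was counted, so sharing with non-coding genes or pseudogenes was not examined for any of the 44.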

How the data were processed

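Libraries were made with a TruSeq RNA kit, per the labels' protocols. Trimmomatic 0.38.0, STAR 2.7.2b, HTSeq 0.9.1 and DESeq2 were used on mm10, per the submitters' processing notes, and annotation and counting options were not given in the sources used here. As their comparison, the authors deposited 1 table of 24221 rows: a base mean (a signal in reads divided by size factors), the log2 fold, its standard error, their quotient (the Wald score), and the p-value before and after adjustment. Column names are numbered, and identities were checked on the values: the score equalled fold over error to within 7.6e-08, and adjusting the p-value of 13814 genes by Benjamini-Hochberg gave the deposited one to within 2.3e-07. No standard error exceeds 0.747, which is read as the mark of a prior that shrinks the deposited log2 folds. There are 0 columns of values per sample, so the authors' test was used at an adjusted p under 0.05, and neither counts nor library depths were available. Base means sum to 20307732 normalised reads.

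Implied levels assume that the deposited fold is the ratio of the group means over 3 samples each. They also assume that the base mean covers only these samples, which could not be checked. GENCODE M21 gave exon lengths and positions on GRCm38 (mm10), and RefSeq gave promoters on GRCm38.p6. Of the 203 pathway genes, 194 matched by current and 9 by older symbol. From each list the text names the up to 2 largest rises and 2 largest falls that passed the threshold and reach a base mean of 100, and the gene of highest base mean. The 44 genes and all lists were chosen with earlier results of these data known. Adjustment, centring and the undoing of the prior were tested on simulated data. The simulated folds were shrunk by the same formula that was then undone. That test therefore cannot show whether the deposited folds follow this prior. Python 3.11.15, pandas 2.3.3 and scipy 1.17.1 were used. Of the 10 pathway lists, 3 enter the total but are not reported here one by one.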

Additional observations from a re-analysis of the deposited data

How the results depend on the processing

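The alternatives used the same deposited folds, so they bear on the number of calls and hardly on direction. In place of 33 rises among the actin genes there were 27 rises at an adjusted p under 0.01, 34 at 0.1, 32 with all genes that have a p-value adjusted, 33 with a base mean of at least 100, with standard errors above 0.5 left out or with folds centred on the median gene (a shift of -0.02), and 22 when an absolute log2 fold of at least 0.5 was required. Arpc5l was the fall in each. At 0.01 the calls of Actn4, Actr3, Arpc1b, Capza1, Capza2 and Wasf2 were lost, and that of Wasf2 also when all p-values were adjusted. At 0.1 Coro1a was gained. The 120 rises of the other pathway genes ranged from 103 to 124 and the 9 falls from 6 to 9. The median of the actin genes ranged from 0.53 to 0.59, the last with the pull of the prior undone. Undoing it moved no single fold by more than 0.154 (Pfn2 left out) and reversed no difference between related genes. No paired analysis was possible because the table holds no values per sample, and leaving out replicates was not run for the same reason. Errors that depend on 1 library can therefore not be seen here.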

Other observations

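The widest standard errors among the 40 actin genes with a base mean of 1000 or more were those of Tmsb10 (0.26), Arpc5l (0.24), Flna (0.23) and Coro1a (0.23) by the authors' deposited table. The median over all tested genes at this level was 0.153, and 18 of the 40 lay above it.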
